A study of Mus musculus with 8 samples.

Results

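The B7 ligands and the CD28-type receptors set how strongly a T cell answers to its antigen receptor. Described here are 7 of these genes: the receptors Cd28, Icos and Cd226, and the ligands Cd80, Cd86, Cd274 (PD-L1) and Pdcd1lg2 (PD-L2). They were taken by gene name from the 52636 rows of the deposited expression table, and all 7 were among the 12816 genes that passed the filter on low values. RNA was sequenced from splenic Foxp3-positive regulatory (Tregs) and Foxp3-negative conventional (Tconvs) CD4+ T cells, with 2 libraries of 200000 sorted cells in each of 4 groups. Per the methods, the depletion before the sort included an antibody to CD25 for Tconvs but not for Tregs. The control mice were CD27+/- Foxp3 reporter mice. The CD11c-Cd70tg;CD27+/- Foxp3 reporter mice (CD70Tg) carried, in addition, a Cd70 transgene under the CD11c promoter, so that dendritic cells constantly offer CD70 to CD27 on T cells. All groups were thus heterozygous for Cd27 and carried the Foxp3 eGFP allele. The methods give an age of 6 to 8 weeks for the mice. Whether animals were pooled is not stated, and nothing says that the 2 libraries of a group came from separate animals. The p-values therefore measure the spread between these libraries, which may be technical.

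CD28 binds CD80 and CD86 on antigen-presenting cells and adds to the antigen receptor signal, while CTLA-4 competes with it for the same ligands and is held at high level by Tregs. ICOS, an inducible relative of CD28, binds ICOS ligand and signals mainly through phosphoinositide 3-kinase. PD-L1 and PD-L2 bind the inhibitory receptor PD-1, and PD-L1 is induced by interferon-gamma in many cell types. CD226 (DNAM-1), an immunoglobulin-type receptor outside the CD28 family, binds CD155 (Pvr) and CD112 (Nectin2), for which TIGIT and CD96 compete with it.

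Positions of the members are given on the mouse genome (GENCODE M21, GRCm38), those of Cd226 being left out. Cd28 (chromosome 1, 60716800 to 60773359, + strand) and Icos (chromosome 1, 60977927 to 61000320, + strand) flank Ctla4. Cd80 (chromosome 16, 38455561 to 38496335, + strand) and Cd86 (chromosome 16, 36603869 to 36666081, - strand) lie 1789.479 kb apart. Cd274 (chromosome 19, 29367455 to 29388095, + strand) ends 22.823 kb before Pdcd1lg2 (chromosome 19, 29410919 to 29471161, + strand). Of the exon length of Cd274, 14.1% overlaps a gene on the opposite strand, AC119228.1. The strand setting of the counting is not given in the sources used here, so that reads in this stretch cannot be told apart, whereas the other 6 members share no exonic base with another gene.

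Cd274 rose with CD70 while its close neighbour Pdcd1lg2 did not pass the test, so the 250 bases before the start site of each are shown, from RefSeq (GRCm38.p6, + strand, 5′ to 3′, CpG dinucleotides in capitals). These are chr19:29367188-29367437 and chr19:29410669-29410918.
Cd274: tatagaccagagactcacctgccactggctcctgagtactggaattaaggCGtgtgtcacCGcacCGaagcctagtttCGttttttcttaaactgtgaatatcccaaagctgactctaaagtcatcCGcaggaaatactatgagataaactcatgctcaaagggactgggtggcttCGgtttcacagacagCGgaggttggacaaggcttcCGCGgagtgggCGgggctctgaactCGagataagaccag
Pdcd1lg2: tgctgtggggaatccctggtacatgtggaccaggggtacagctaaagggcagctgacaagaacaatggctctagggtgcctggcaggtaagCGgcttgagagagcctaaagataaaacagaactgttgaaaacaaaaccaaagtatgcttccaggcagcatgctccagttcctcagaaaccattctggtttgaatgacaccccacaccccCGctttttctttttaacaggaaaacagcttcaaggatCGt
The Cd274 stretch held 11 CpG and the Pdcd1lg2 stretch 3, where the median over 32851 promoters was 6, and their GC contents were 50.4% and 48.4%. In the 300 bases listed for each (50 after the start site included), no match was found on either strand to TTCNNNGAA, the letters of interferon-gamma-activated sites, which 8.3% of all promoters held, or to TCACACC, those of T-box elements, which 3.98% held. Such a search says only that these letters are not in this window. A promoter was listed for 3 of the 7 members, the third being Cd80.

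Values are read counts per gene that the authors scaled to a total of 20000000 in each library and rounded up. The number of reads behind them, recovered from the step between low values, ranged from 1910000 to 4570000 in Treg libraries and from 6940000 to 33300000 in Tconv libraries, the 2 deepest being less certain. A value was taken as detected above that of 3 reads, which was 13.1 to 31.3 in Tregs and 1.8 to 8.64 in Tconvs and covers counting error only. Foxp3 lay between 19769 and 21367 in the 4 Treg libraries and between 1039 and 1497 in the 4 Tconv libraries. Cd70 read 15 and 28 in CD70Tg Tconvs and 11 and 44 in CD70Tg Tregs, against 4 and 3, and 0 and 9, in the controls, which stand for 5 and 46, 1 and 8, 3 and 1, and 0 and 2 reads in the same order. The tests were run in limma on values taken to log2(value + 5), which understates changes of low genes, and a gene was called at an adjusted p below 0.05. In bulk RNA, fewer cells with a transcript and less transcript per cell cannot be told apart.

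Cd274 rose in both subsets, with the smallest adjusted p of the members in each, and Cd80 rose in Tconvs from a level of few or no reads. In Tregs, the receptors Cd28 and Cd226 fell, but these calls held in only 10 and 8 of 18 alternatives. Both were lost when any single Treg library was left out. Icos, Cd86 and Pdcd1lg2 did not pass the test in either subset. In Tregs, 3 of the 7 members were called (7.4% of the 12816 tested genes were), 1 higher (3.94% of tested genes) and 2 lower (3.46%), and 0 also passed the study's threshold of 1 on the absolute log2 fold change (3.6%). In Tconvs, 2 of 7 were called (8.81% of all tested genes, 6.82% higher and 1.99% lower), both higher and both past the fold threshold (4.65%). The median log2 fold change of the members was 0.13 in Tregs and 0.34 in Tconvs, beside -0.05 and 0.01 over all tested genes. The groups did not overlap for 6 of 7 members in Tregs, where this held for 53.7% of tested genes, and for 3 of 7 in Tconvs, where it held for 45.1%. On simulated data the fit made more false calls in the Treg comparison than its adjusted threshold allows, so that Treg calls near the threshold carry less weight than their adjusted p states. With 2 libraries against 2, the smallest two-sided exact permutation p is 0.333, so that all p-values below are from the fit across genes.

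**Figure D1:**
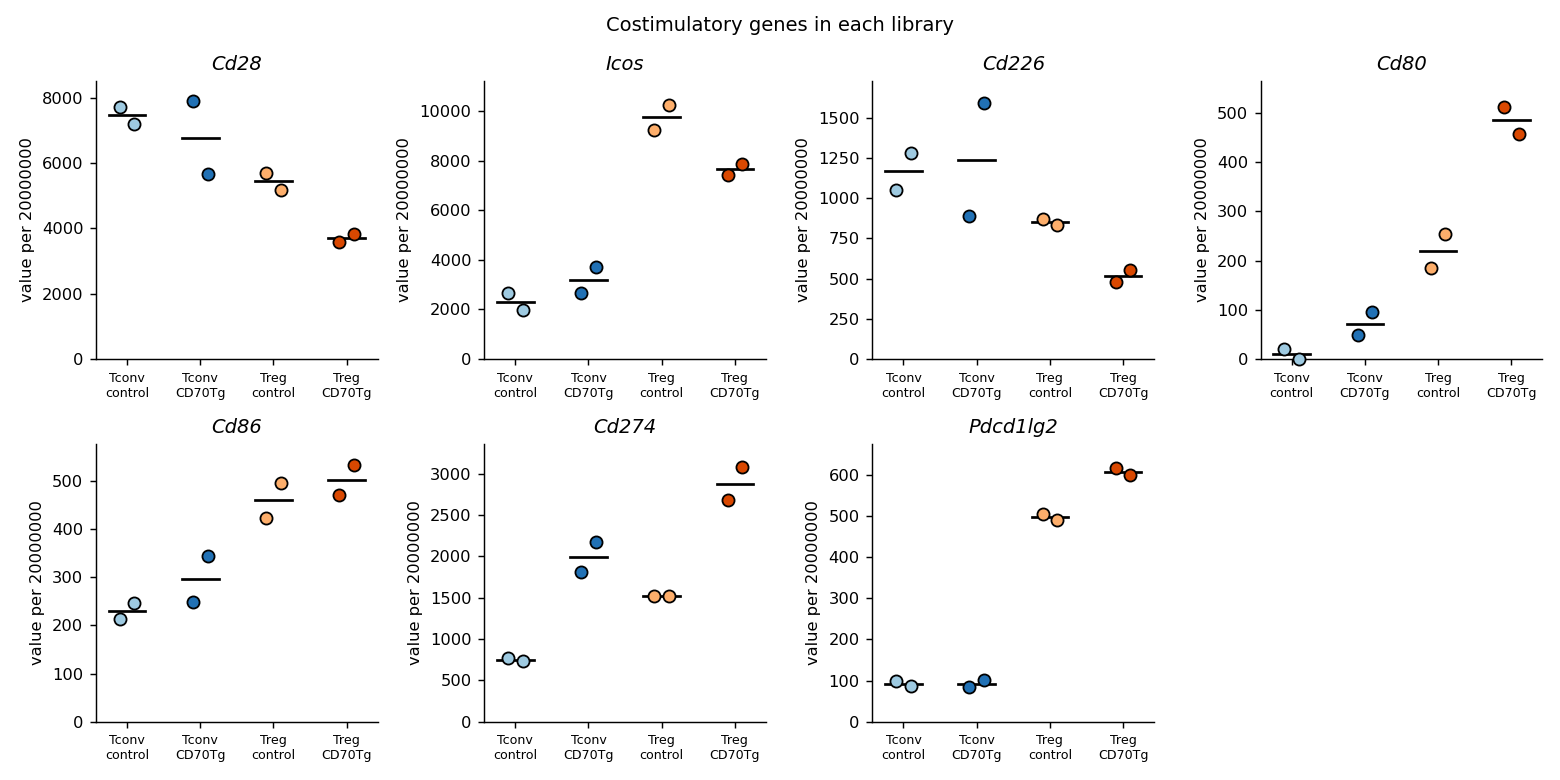
Values per 20000000 (linear axes from 0) of the 7 costimulatory genes in each library. Points are the 2 libraries of each group and lines their means. Cd274 is higher in CD70Tg than in control libraries in both subsets, and Cd28 and Cd226 are lowest in CD70Tg Tregs. Icos, Cd80, Cd86 and Pdcd1lg2 are higher in every Treg library than in every Tconv library.

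Cd28, the founding costimulatory receptor, read 7726 and 7211 in control Tconvs, 7892 and 5672 in CD70Tg Tconvs, 5707 and 5171 in control Tregs, and 3584 and 3817 in CD70Tg Tregs. Both CD70Tg Treg libraries were below every other library, while the CD70Tg Tconv libraries lay on either side of the controls. In Tregs the mean went from 5439 ± 379 to 3700.5 ± 165 (SD, n = 2), a log2 fold change of -0.55 ± 0.14 (SE) with an adjusted p of 0.0215. This call was lost when any single Treg library was left out (adjusted p from 0.0632 to 0.223), with limma-voom on recovered reads (0.129), with median-of-ratios factors (0.0805), without a minimum value (0.127) and without a variance trend (0.157), the log2 fold change staying between -0.63 and -0.48. In Tconvs the log2 fold change was -0.16 (95% interval -0.45 to 0.13, adjusted p = 0.625). Without the first CD70Tg Tconv library it was -0.40 with an adjusted p of 0.0452.

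Icos, the inducible receptor, read 2663 and 1980 in control Tconvs, 2648 and 3720 in CD70Tg Tconvs, 9239 and 10272 in control Tregs, and 7419 and 7890 in CD70Tg Tregs. Treg libraries were all above Tconv libraries, and CD70Tg Tregs below control Tregs. These are RNA values, whereas the paper's flow cytometry found a larger share of ICOS-positive Tregs in CD70Tg mice. In Tregs the log2 fold change was -0.35 ± 0.16 (SE, adjusted p = 0.208), and when the 4 Treg libraries were fitted alone the adjusted p was 0.0123. In Tconvs, where the groups overlapped, it was 0.45 ± 0.16 (adjusted p = 0.0965). There the adjusted p was 0.0183 without the first control library and 0.0073 without the first CD70Tg library.

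Cd226, which encodes the activating receptor for CD155 and CD112, read 1053 and 1283 in control Tconvs, 888 and 1591 in CD70Tg Tconvs, 869 and 832 in control Tregs, and 481 and 555 in CD70Tg Tregs. The CD70Tg Treg libraries were the lowest of all, and the CD70Tg Tconv libraries spanned both controls. In Tregs the mean went from 850.5 ± 26.2 to 518 ± 52.3 (SD, n = 2), a log2 fold change of -0.71 ± 0.21 (SE) with an adjusted p of 0.0484, just under the threshold. The call was lost without any single Treg library (0.0958 to 0.256) and in 6 other settings, limma-voom among them (0.468), the log2 fold change staying between -0.82 and -0.61. In Tconvs the log2 fold change was 0.03 (95% interval -0.41 to 0.48, adjusted p = 0.961).

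**Figure D2:**
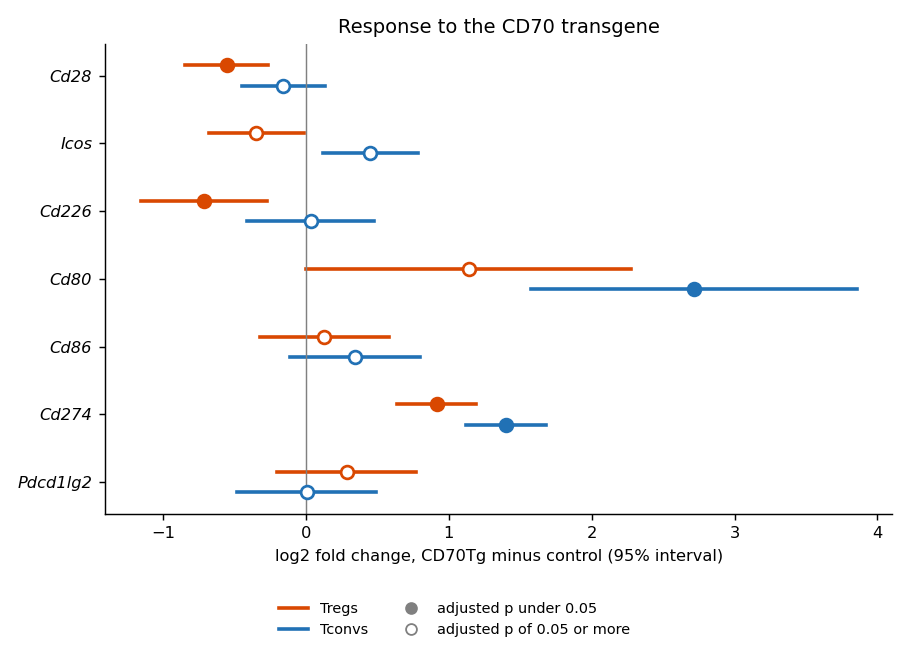
Log2 fold changes (CD70Tg minus control, on log2(value + 5)) of the 7 genes in Tregs (orange) and Tconvs (blue), with 95% intervals from limma. Filled points have an adjusted p below 0.05: Cd28, Cd226 and Cd274 in Tregs, and Cd80 and Cd274 in Tconvs.

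Among the ligands, Cd80, which binds both CD28 and CTLA-4, read 20 and 0 in control Tconvs, 49 and 95 in CD70Tg Tconvs, 185 and 254 in control Tregs, and 512 and 457 in CD70Tg Tregs. These values stand for 19, 0, 17 and 158 reads in Tconvs and 38, 58, 49 and 84 reads in Tregs, and the 0 allows a value of up to 6.28. Libraries of CD70Tg mice were above those of controls within each subset, and Treg libraries were all above Tconv libraries. In Tconvs the log2 fold change was 2.72 ± 0.54 (SE, adjusted p = 0.00303). It was not called without the second CD70Tg library (adjusted p = 0.0755), without a minimum value (0.152) or without a variance trend (0.0773), and because a control library holds 0 reads its size depended on the number added before the logarithm, being 3.92 with 1 and 1.66 with 20. Without the first control library, which leaves the one at 0, it was 3.88, and without the second it was 1.56, both still called. In Tregs it was 1.14 ± 0.54 (adjusted p = 0.231), and the adjusted p was 0.00321 when the 4 Treg libraries were fitted alone and 0.0471 without the second control Tconv library.

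Cd86, which encodes the other ligand of CD28 and CTLA-4, read 213 and 247 in control Tconvs, 248 and 344 in CD70Tg Tconvs, 423 and 495 in control Tregs, and 471 and 533 in CD70Tg Tregs. The groups were apart in Tconvs by a single unit (248 against 247) and overlapped in Tregs. The log2 fold change was 0.34 (95% interval -0.11 to 0.80, adjusted p = 0.447) in Tconvs and 0.13 (-0.32 to 0.58, adjusted p = 0.789) in Tregs. No alternative called it in either subset.

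Cd274, which encodes PD-L1, read 767 and 729 in control Tconvs, 1807 and 2176 in CD70Tg Tconvs, 1519 and 1524 in control Tregs, and 2675 and 3083 in CD70Tg Tregs. Every CD70Tg library was above both controls of its subset, and CD70Tg Tconvs were above control Tregs. In Tconvs the mean went from 748 ± 26.9 to 1991.5 ± 261 (SD, n = 2), a log2 fold change of 1.40 ± 0.13 (SE, adjusted p = 1.8e-06). In Tregs it went from 1521.5 ± 3.54 to 2879 ± 288.5, a log2 fold change of 0.91 ± 0.13 (adjusted p = 0.000376), under the study's fold threshold of 1 on the log2 scale. At the adjusted p alone the call held in all 18 alternatives in each subset.

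Pdcd1lg2, which encodes PD-L2, the second ligand of PD-1, read 98 and 86 in control Tconvs, 84 and 101 in CD70Tg Tconvs, 505 and 491 in control Tregs, and 617 and 599 in CD70Tg Tregs. CD70Tg Tregs were above control Tregs, and the Tconv groups overlapped. The log2 fold change was 0.29 (95% interval -0.20 to 0.77, adjusted p = 0.518) in Tregs and 0.00 (-0.48 to 0.49, adjusted p = 0.997) in Tconvs.

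Antigen-presenting cells hold much Cd80, Cd86 and MHC class II RNA. The methods name antibodies, among them ones to CD11c, CD8beta and MHC class II, for removing other cells before the sort. The summed values of the 5 MHC class II genes (Cd74, H2-Aa, H2-Ab1, H2-Eb1, Ciita) were 1568 to 2956 in control Tconvs, 3871 to 7988 in CD70Tg Tconvs, 3273 to 4875 in control Tregs and 14630 to 16188 in CD70Tg Tregs. In Tregs 4 of these 5 genes were called higher (3.94% of all tested genes were), and 1 of 5 in Tconvs (6.82% were), the shares against which the counts of the following lists also stand. The 8 dendritic cell markers summed to 79 to 147 and 198 to 350 in control and CD70Tg Tconvs, and to 109 to 161 and 389 to 421 in control and CD70Tg Tregs, with Itgax called higher in Tconvs. Of the 8, 2 entered the test, and Zbtb46 did so only through the CD70Tg Treg libraries in which it was high, so that no call is given for it. In Tregs Zbtb46 went from 25 and 27 to 209 and 191. Of the others, Xcr1 read 10 and 18 in control and 63 and 33 in CD70Tg Tregs, and 7 and 26 in control and 49 and 56 in CD70Tg Tconvs. In control and CD70Tg Tregs, Clec9a read 5 and 0 against 21 and 22, Clec10a 0 and 5 against 11 and 11, Siglech 0 and 0 against 11 and 6, Flt3 10 and 27 against 32 and 22, and Cd209a 10 and 0 against 0 and 0. The CD70Tg Treg values stand for 2 and 4 reads of Clec9a, 1 and 2 of Clec10a, and 1 and 1 of Siglech. The 9 B cell markers summed to 274 to 433 in control and 494 to 526 in CD70Tg Tregs, and to 198 to 204 and 82 to 104 in Tconvs, and of the 2 that entered the test 0 were called. The 8 macrophage and monocyte markers summed to 2940 to 3057 and 2973 to 3159 in control and CD70Tg Tregs, and to 1584 to 1603 and 1176 to 1533 in Tconvs. Within that list Itgam rose and Csf1r fell in Tregs, and Cd68 rose and Itgam fell in Tconvs. The 6 neutrophil markers summed to 5 to 14 in control and 212 to 242 in CD70Tg Tregs, and to 21 to 32 and 15 to 35 in Tconvs, and the 1 that entered the test, S100a9, did so only through the CD70Tg Treg libraries. In control and CD70Tg Tregs S100a9 read 0 and 5 against 95 and 104, S100a8 5 and 0 against 74 and 55, Ltf 0 and 9 against 11 and 44, and Camp 0 and 0 against 21 and 28, while Retnlg and Ly6g were at 2 reads or fewer. For Ltf and Camp the CD70Tg Treg values stand for 1 and 8, and 2 and 5 reads. The 4 erythroid markers summed to 424 to 1153 and 1699 to 2656 in control and CD70Tg Tregs and to 609 to 1067 and 664 to 699 in Tconvs, with Hba-a1 and Hbb-bs called higher in Tregs. The 5 NK cell markers summed to 36 to 64 and 0 to 11 in Tregs and to 423 to 455 and 81 to 90 in Tconvs, with Klrb1c, the 1 that entered the test, called lower in both. The 2 CD8 markers rose in Tconvs, from sums of 681 to 720 to sums of 1563 to 1590, and 1 of 2 rose in Tregs. The part of such cells in the values of Cd80, Cd86, Cd274 and Pdcd1lg2 was not tested.

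The responses of Tregs and Tconvs were compared in the same model, Tconvs being the cells left after the CD25 depletion. None of the 7 members differed between the subsets at an adjusted p below 0.05 (1.02% of all tested genes did), and 3 did at an unadjusted p below 0.05. Icos, lower in CD70Tg Tregs and higher in CD70Tg Tconvs, differed by -0.80 on the log2 scale (95% interval -1.27 to -0.33, unadjusted p = 0.00241, adjusted p = 0.12). Cd226 differed by -0.75 (-1.37 to -0.12, adjusted p = 0.353) and Cd274 by -0.49 (-0.88 to -0.09, adjusted p = 0.326). Without the first CD70Tg Tconv library, Icos (adjusted p = 0.0107) and Cd226 (0.0116) passed. Without the first control Tconv library, Icos (0.0225) and Cd80 (0.0192) did. The adjusted p over the alternatives ran from 0.0107 to 0.45 for Icos.

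**Figure D3:**
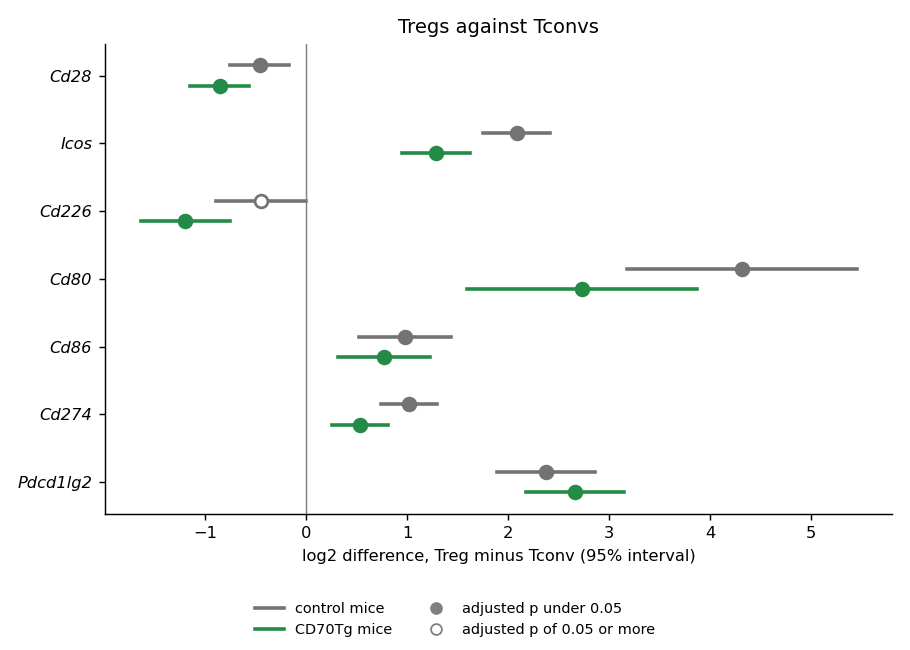
Log2 differences (Treg minus Tconv, on log2(value + 5)) of the 7 genes in control (grey) and CD70Tg mice (green), with 95% intervals from limma. Filled points have an adjusted p below 0.05. Only Cd226 in control mice is open, and Cd28 and Cd226 are the members that were lower in Tregs.

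More members were called between the subsets than between the genotypes. Because the CD25 depletion was applied to Tconvs only, differences between subsets cannot be told apart from this difference in purification. In control mice 6 of 7 members were called (45.8% of all tested genes were, 27.5% higher and 18.4% lower in Tregs), 4 of them past the fold threshold (19.2%), with Icos, Cd80, Cd86, Cd274 and Pdcd1lg2 higher in Tregs and Cd28 lower. Cd80 differed most, by 4.31 ± 0.54 (log2, SE), a value that again rests on a control Tconv library at 0. Pdcd1lg2 was higher by 2.38 ± 0.23, Icos by 2.08 ± 0.16, Cd274 by 1.02 ± 0.13 and Cd86 by 0.98 ± 0.21. Cd28 was lower, by -0.46 ± 0.14 (adjusted p = 0.0128), which did not hold without the first control Tconv (0.0636) or the second control Treg library (0.114), nor without a minimum value (0.0822) or a variance trend (0.0802). Cd226 was at -0.45 ± 0.21 (adjusted p = 0.0904), and passed with median-of-ratios factors (0.044) and without either CD70Tg Tconv library (0.0176 and 0.0193). In CD70Tg mice all 7 members were called (42.7% of all tested genes were, 22.6% higher and 20.1% lower), 5 higher and 2 lower in Tregs and 4 past the fold threshold (17.2%). Pdcd1lg2 differed by 2.66, Cd80 by 2.73, Icos by 1.28, Cd86 by 0.77, Cd274 by 0.53, Cd28 by -0.85 and Cd226 by -1.19 on the log2 scale. There, Cd274 was not called without the second CD70Tg Treg library (adjusted p = 0.0587), and Cd86 not without that library (0.0588) or the first CD70Tg Tconv library (0.0803).

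Values per kb of exon set levels of different genes side by side only roughly. The length was that of all annotated exons of a gene, and which transcripts were expressed was not tested. On this scale Cd28 was the highest member in control Tconvs (1220 ± 59.5, SD, n = 2), followed by Icos (677 ± 141), Cd226 (239 ± 33.3), Cd274 (207 ± 7.42), Cd86 (62.8 ± 6.57), Pdcd1lg2 (46.9 ± 4.33) and Cd80 (2.7 ± 3.82). No 2 neighbours in this order overlapped, but Cd226 (lower library 215) and Cd274 (higher library 212) were close. In CD70Tg Tconvs, Cd274 (550 ± 72) stood above Cd226 (253 ± 102), and Cd28 (1108 ± 256) overlapped with Icos (928 ± 221). In control Tregs Icos led (2844 ± 213), before Cd28 (888 ± 61.9), Cd274 (420 ± 0.976), Pdcd1lg2 (254 ± 5.05), Cd226 (174 ± 5.35), Cd86 (125 ± 13.9) and Cd80 (59.3 ± 13.2), again without overlap. In CD70Tg Tregs, Cd274 (795 ± 79.7) stood above Cd28 (604 ± 26.9), Cd86 (137 ± 12) and Cd80 (131 ± 10.5) overlapped, and Cd226 (106 ± 10.7) was the lowest member.

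Ratios of paired genes within a library, taken after adding 5 to each value, do not change with the scaling of a library except at low values, where the added number counts. They show change and not which gene was more abundant, since they were not set per length. The ratio of Cd274 to Pdcd1lg2 was 7.5 and 8.07 in control Tconvs and 20.4 and 20.6 in CD70Tg Tconvs, and 2.99 and 3.08 in control Tregs against 4.31 and 5.11 in CD70Tg Tregs. It was thus higher in CD70Tg libraries in both subsets. The ratio of Cd86 to Cd80 was 8.72 in the first control Tconv library, and in the second, with 0 Cd80 reads, it is set by the added number. It was 4.69 and 3.49 in CD70Tg Tconvs, 2.25 and 1.93 in control Tregs, and 0.921 and 1.16 in CD70Tg Tregs. It was lower in CD70Tg libraries in both subsets, by -1.01 on the log2 scale in Tregs. The change in Tconvs, -2.37, was -3.57 with 1 and -1.33 with 20 added, -3.64 without the first control library and -1.11 without the second. Of the receptors, Icos to Cd28 was 0.345 and 0.275 in control and 0.336 and 0.656 in CD70Tg Tconvs, which overlapped, and 1.62 and 1.99 in control and 2.07 and 2.07 in CD70Tg Tregs, which did not.

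**Figure D4:**
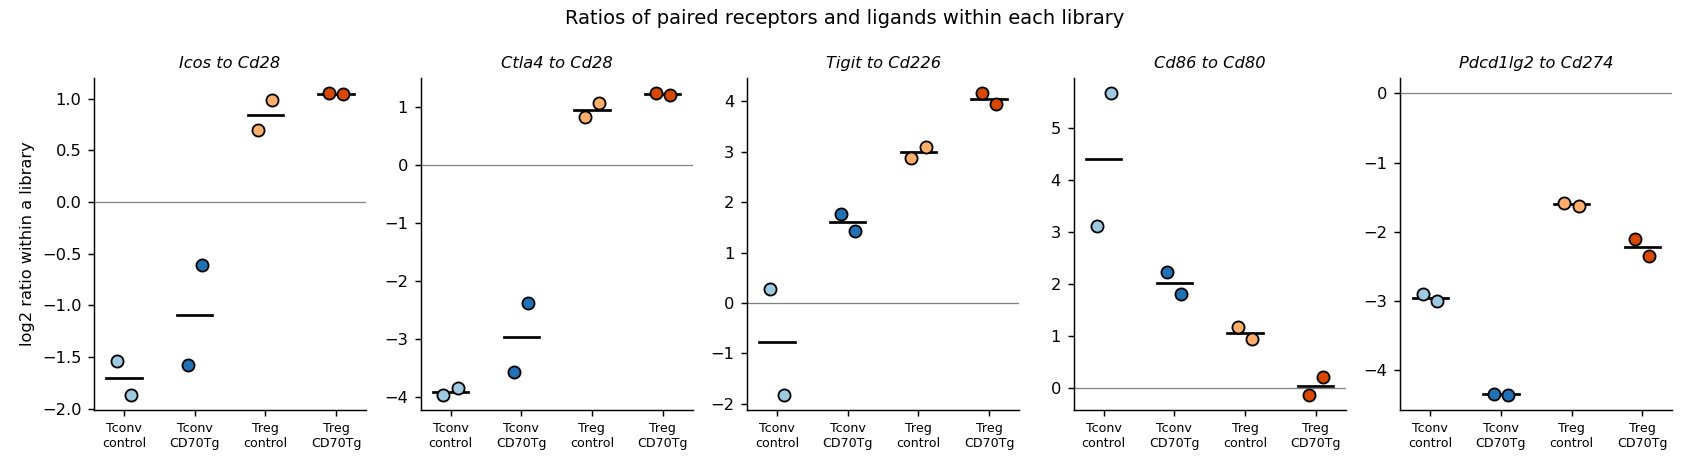
Log2 of the ratio of paired genes within each library, from values with 5 added. Points are libraries and lines group means. Icos to Cd28 overlaps between control and CD70Tg Tconvs, and the other ratios separate control from CD70Tg in both subsets. The highest Cd86 to Cd80 point is a library with 0 Cd80 reads.

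The inhibitory partners were read beside the members, again as RNA. For the proteins, the paper reports by flow cytometry higher CTLA-4, PD-1 and TIGIT in both subsets of CD70Tg mice. Ctla4, which shares its ligands with Cd28, read 493 and 496 in control Tconvs, 663 and 1090 in CD70Tg Tconvs, 10142 and 10898 in control Tregs, and 8453 and 8890 in CD70Tg Tregs. It rose in Tconvs (log2 fold change 0.78, adjusted p = 0.00588) and was at -0.28 in Tregs (adjusted p = 0.364). The ratio of Ctla4 to Cd28 went from 1.78 and 2.11 in control Tregs to 2.36 and 2.33 in CD70Tg Tregs. Pdcd1, the gene of PD-1, read 1867 and 547 in control Tconvs, 3812 and 5157 in CD70Tg Tconvs, 1835 and 1826 in control Tregs, and 1892 and 1800 in CD70Tg Tregs. It rose in Tconvs (2.13, adjusted p = 0.000465) and was at 0.01 in Tregs (adjusted p = 0.988). Tigit, the inhibitory rival of Cd226, read 1274 and 360 in control Tconvs, 3037 and 4315 in CD70Tg Tconvs, 6410 and 7163 in control Tregs, and 8652 and 8607 in CD70Tg Tregs. It rose in Tconvs (2.41, adjusted p = 0.000181) and was at 0.35 in Tregs (adjusted p = 0.616). With the 4 Treg libraries fitted alone, the adjusted p in Tregs was 0.0114 for Tigit and 0.0335 for Ctla4. The 2 control Tconv libraries were far apart in Pdcd1 and Tigit. Without the first of them the log2 fold changes in Tconvs were 3.01 for Pdcd1 and 3.31 for Tigit, and without the second 1.25 and 1.5, all called. Ctla4 in Tconvs was not called without the second CD70Tg library (0.42, adjusted p = 0.0723). Without a minimum value Ctla4, Pdcd1 and Tigit in Tconvs were not called (adjusted p = 0.161, 0.0994 and 0.0752), nor were Ctla4 (0.117) and Pdcd1 (0.0621) without a variance trend. Tigit to Cd226 was 7.34 and 8.56 in control Tregs and 17.8 and 15.4 in CD70Tg Tregs.

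Of the other partners, Cd96, also a receptor for CD155, fell in Tregs (-0.50, adjusted p = 0.0151) and was at -0.01 in Tconvs (adjusted p = 0.984). Icosl, the ligand of ICOS, was at 0.43 in Tregs (adjusted p = 0.413) and 0.59 in Tconvs (0.279). Pvr was at -0.26 (0.34) and -0.15 (0.666) in Tregs and Tconvs. Nectin2 read 54 and 40 in control Tregs, 63 and 60 in CD70Tg Tregs, 13 and 3 in control Tconvs, and 9 and 13 in CD70Tg Tconvs. It entered the test only through the CD70Tg Treg libraries, so that no test value is given for it. Btla, an inhibitory receptor, fell in both subsets (-0.73, adjusted p = 0.00675, and -0.63, adjusted p = 0.012). Of the 8 CD28 and B7 relatives 6 were tested, and Btla was the 1 called in Tregs (7.4% of all tested genes were), while 2 rose and 1 fell in Tconvs (8.81% called over all tested genes). Of the 8 CD226 and nectin relatives 6 were tested: Crtam (1.92) and Pvrig (1.36) rose and Cd96 fell in Tregs, and Pvrig (2.75) and Tigit rose in Tconvs. Crtam read 25 and 9 in control Tregs, the second a value of fewer than 3 reads, and its log2 fold change there ran from 1.36 to 2.47 over the alternatives.

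Genes that link interferon-gamma to PD-L1 were listed as well. Of the 8, all tested, 4 rose in Tregs and 0 fell, where 3.94% of all tested genes rose and 3.46% fell, and 6 rose and 1 fell in Tconvs, where 6.82% rose and 1.99% fell. The receptor chain Ifngr1 read 3455 and 3275 in control Tconvs, 6391 and 7528 in CD70Tg Tconvs, 7585 and 8245 in control Tregs, and 15913 and 18492 in CD70Tg Tregs. Its log2 fold change was 1.12 in Tregs and 1.04 in Tconvs. The other receptor chain, Ifngr2, fell in Tconvs (-0.59, adjusted p = 0.0161) and was at -0.23 in Tregs (adjusted p = 0.389). Irf1, a transcription factor induced by the signal, had log2 fold changes of 0.83 and 0.96 in Tregs and Tconvs. Ifngr1 was called in all 18 alternatives in each subset, and Irf1 in 16 of 18 in Tregs and 17 of 18 in Tconvs. The median log2 fold change of this list was 0.31 in Tregs and 0.49 in Tconvs, beside -0.05 and 0.01 over all tested genes.

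Among the 19 genes of CD28 and ICOS signalling, all tested, 0 rose and 3 fell in Tregs (3.46% of all tested genes fell), and 0 rose and 1 fell in Tconvs (1.99% fell). The median log2 fold change was -0.13 and 0.03. Pik3r1, the regulatory subunit of phosphoinositide 3-kinase, fell in both (-0.72, adjusted p = 0.00166, and -0.51, adjusted p = 0.0119). Pik3ip1, an inhibitor of the same kinase, fell in Tregs (-0.64, adjusted p = 0.00775), and so did Prkcq, the kinase that carries the CD28 signal to NF-kB (-0.51, adjusted p = 0.00929). The members that fell thus include an inhibitor of the pathway. Of the 5 outputs of CD28, 4 were tested, and Myc fell in Tregs (-0.45, adjusted p = 0.0248) and likewise in Tconvs (-0.51, adjusted p = 0.00842), with 0 rising in either. Of the 8 regulators of costimulatory transcripts and proteins, 7 were tested. Rc3h1, which encodes Roquin-1, known to repress Icos mRNA, fell in Tregs (-0.50, adjusted p = 0.0223), and 0 were called in Tconvs. Cmtm6, which protects the PD-L1 protein from breakdown, was at -0.19 in Tregs (adjusted p = 0.401) and -0.07 in Tconvs (0.826). None of the 3 phosphatases of PD-1 and TIGIT was called in either subset with limma at the adjusted threshold. Leaving out a library, or another processing, ended the calls of Cd96, Myc and Rc3h1 in Tregs in 7 of 18 alternatives each, of Pik3ip1, Prkcq, Btla and Pvrig in Tregs and of Pik3r1 and Ifngr2 in Tconvs in 5 of 18 each, of Btla in Tconvs in 4, of Myc in Tconvs in 3 and of Crtam in Tregs in 2 of 17. Over all 59 listed genes, 53 were tested, and 6 rose and 7 fell in Tregs, where 7.4% of all tested genes were called, and 10 rose and 4 fell in Tconvs, where 8.81% were.

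**Figure D5:**
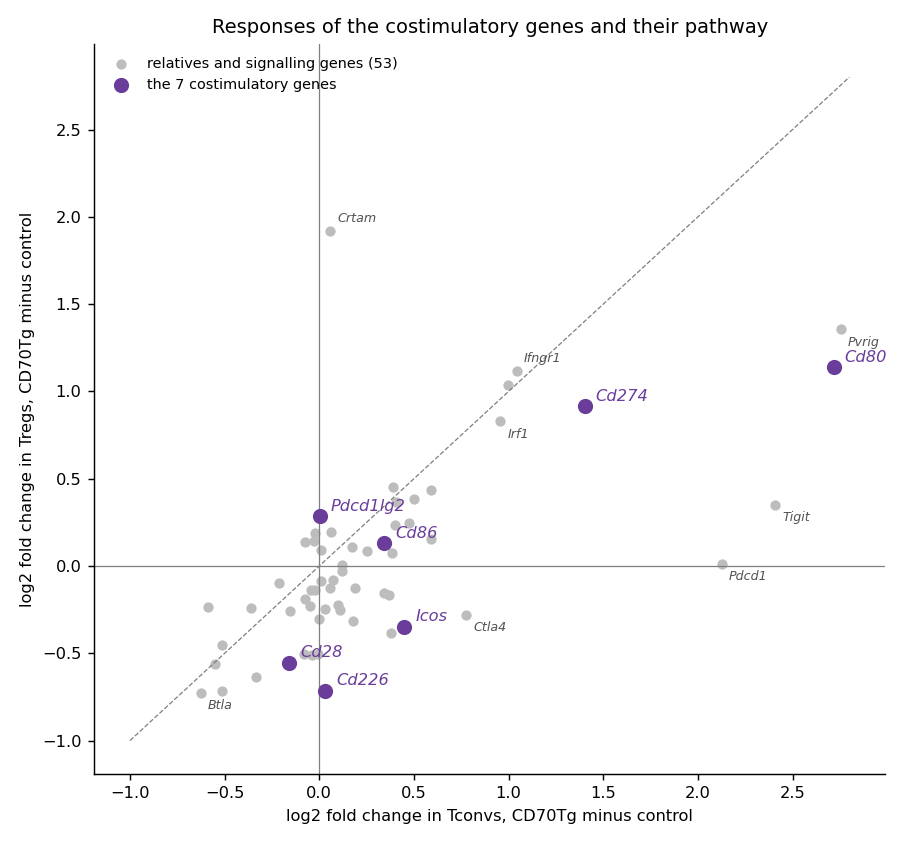
Log2 fold changes (CD70Tg minus control) in Tconvs (horizontal axis) and Tregs (vertical axis) of the 7 costimulatory genes (purple) and the 53 tested relatives and signalling genes (grey). The dashed line marks equal change. Cd80 and Cd274 lie to the right, Cd80 near Pvrig, and Tigit and Pdcd1 lie far below the line.

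For each member, the 3 tested genes with the most similar pattern over the 8 libraries were taken by Pearson's r on log2(value + 5), as a description. The 8 libraries fall into 4 groups of 2, so that such an r follows mainly the group means. Cd274 was most like Gbp10, an interferon-induced guanylate-binding protein gene (r = 0.997), Serpina3g (0.994) and Lilrb4a (0.994). Cd28 was most like Card6 (0.986), Gpr183 (0.98) and Rasgrp1 (0.977), and Icos like Gm15655 (0.998), Klc3 (0.997) and Gramd1b (0.996). For Cd226 these were Vav1 (0.981), a signalling gene also in the list above, Fkbpl (0.97) and Mbd3 (0.968). For Cd80 they were Map3k5 (0.997), Khnyn (0.996) and Mapk8ip1 (0.991), for Cd86 Ddx42 (0.996), Hmox1 (0.993) and Gpr55 (0.99), and for Pdcd1lg2 Gm8203 (0.998), Wwp1 (0.997) and Capg (0.996). Between members, r was 0.584 for Cd274 and Pdcd1lg2, 0.882 for Cd80 and Cd86, and -0.763 for Cd28 and Icos.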

How the data were processed

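Per the labels and methods, Trimmomatic 0.36 took off adapters, STAR 2.5.3 aligned to mm10 and HTSeq 0.9.1 counted reads per gene. The annotation release and the strand setting are not given in the sources used here. The deposited values (a score per gene) are these read counts, which the authors scaled to a total of 20000000 in each library and rounded up. The control columns are named KO in the table, WT in the sample descriptions and CD27+/- in the methods, and were taken as one control group per subset. Columns carry no replicate number, so libraries are called first and second in table order.

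Because the values are scaled, no count model was the main test. Of 52636 rows, 4131 with clone-derived names were left out, since their low values follow the step of another library. For 97 names on several rows, the row with the largest total was taken. The 12816 genes that reached 60 in 2 or more libraries entered a limma 3.58.1 fit (R 4.3.3, variance trend) on log2(value + 5), with 4 group coefficients over 8 libraries and 5 contrasts, Benjamini-Hochberg adjusted per contrast over all tested genes. On data simulated at the depths of these libraries, the fit recovered most genes changed by the larger simulated folds and few of those changed by the smallest. False calls took a larger share than the adjusted threshold allows in the Treg comparison, whose libraries are shallower, for the larger folds, and a smaller one in the Tconv comparison. Annotation was GENCODE M21, which holds 99.7% of the identifiers used.

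The members and lists were chosen with earlier results of these data known. Named were all 7 members, their direct partners, and of each list the called genes with the largest rise and fall, and some others chosen after their values were seen (Pik3ip1, Prkcq, Irf1 and Cmtm6). The alternatives were pseudocounts of 1 and 20, no minimum, a value above 10 in every library, median-of-ratios factors, quantile normalization, the libraries of a subset alone, limma-voom on recovered reads, no trend, clone-named rows kept, a fold threshold and leaving out each library.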

Additional observations from a re-analysis of the deposited data

Results flagged for a closer look

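Of the 53 tested relatives and signalling genes, 2 responded differently in Tregs and Tconvs by the test of the difference itself. In the same model, 131 of all 12816 tested genes (1.02%) did. For Pdcd1 the Treg response minus the Tconv response was -2.11 on the log2 scale (limma, adjusted p = 0.042), and for Ctla4 it was -1.05 (adjusted p = 0.0407). Pdcd1 stayed called in 5 of 17 alternatives and Ctla4 in 6 of 17. Both calls were lost when any single Treg library was left out. The difference for Pdcd1 was -3.00 without the first control Tconv library and -1.23 (adjusted p = 0.00565) without the second, and that for Ctla4 was -0.70 (adjusted p = 0.0675) without the second CD70Tg Tconv library. The 2 control Tconv libraries read 1867 and 547 for Pdcd1, and 493 and 496 for Ctla4. No member met this test.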

How the results depend on the processing

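Of 604 values of members under the alternatives, 554 kept their direction and their side of the threshold, 28 lost and 13 gained a call, and 9 changed sign, none of these 9 being called. Cd274 was called in both subsets under all 18 alternatives at the adjusted p alone, and with the fold threshold in Tconvs but not in Tregs. The number of members called in Tregs, 3, became 1 without a minimum value, with median-of-ratios factors, with limma-voom on recovered reads and without a variance trend, 5 with the 4 Treg libraries alone, 0 with the fold threshold, and 1 to 4 with a library left out. In Tconvs, 2 became 1 without a minimum, with a value above 10 in every library and without a trend, and 1 to 4 with a library left out. The number for the difference between the responses, 0, became 0 to 2 with a library left out. In CD70Tg mice, the 7 members called between subsets became 4 with the fold threshold. Of the listed relatives and signalling genes, 13 were called in Tregs, 3 without a minimum, 5 with limma-voom, 3 without a trend, 4 with the fold threshold and 6 to 15 with a library left out. In Tconvs 14 were called, 3 without a minimum, 5 without a trend, 4 with the fold threshold and 9 to 19 with a library left out. For the difference, 2 became 0 with a pseudocount of 1, without a minimum, with median-of-ratios factors, with limma-voom and without a trend, 4 with a pseudocount of 20, 1 with quantile normalization and with clone-named rows kept, and 0 to 5 with a library left out. Between subsets, 34 in control and 37 in CD70Tg mice became 17 and 12 with the fold threshold.

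Signs changed in the following values, of which Pdcd1 between subsets was called and the others were not. With median-of-ratios factors these were Pdcd1lg2 (-0.032) and Cd226 (-0.0065) in Tconvs and Nectin2 in the difference (0.016). With quantile normalization they were Pdcd1lg2 (-0.13) and Crtam (-0.042) in Tconvs, and Icosl (0.082) in the difference. Nectin2 also changed with a pseudocount of 20 (0.12), and Cd96 in Tconvs with limma-voom (0.010). With a library left out, the log2 fold change in Tconvs ran from -0.40 to 0.080 for Cd28, -0.12 to 0.13 for Pdcd1lg2, -0.39 to 0.45 for Cd226, -0.11 to 0.098 for Cd96, -0.18 to 0.99 for Nectin2, -0.22 to 0.072 for Cmtm6, -0.18 to 0.026 for Rc3h1 and -0.12 to 0.24 for Crtam, and in Tregs from -0.024 to 0.048 for Pdcd1. Nectin2 entered the test only through the CD70Tg Treg libraries, so that its values are no test of a response and are left out. The difference ran from -0.44 to 0.019 for Cd86, -0.71 to 0.40 for Icosl, -0.62 to 0.55 for Nectin2 and -0.24 to 0.035 for Pvr. Pdcd1 between subsets in control mice, 0.85 with an adjusted p of 0.0488, ran from -0.028 to 1.73. The cause was not tested.

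Over all 12816 tested genes, the 948 called in Tregs became 261 of 26467 without a minimum, 258 with limma-voom, 442 without a trend, 1615 with the 4 libraries alone, 462 with the fold threshold and 300 to 1286 with a library left out. The 1129 in Tconvs became 365, 1972, 635, 998, 596 and 524 to 1554 in the same order. The 131 for the difference became 0 without a minimum and without a trend, 61 with limma-voom, and 62 to 269 with a library left out. With quantile normalization 2800 of 6099 calls between subsets in control mice were higher in Tregs, against 3518 of 5875, and in CD70Tg mice 2750 of 5907, against 2894 of 5467. No paired analysis was possible because the table's columns give no replicate number that could be matched to the sample titles. Where a library was left out, the lone library of its group was assumed to vary like the other groups. Depth limits Cd80 in particular, with 0 to 158 reads in a Tconv library.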
